A study of Mus musculus with 24 samples.

Results

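D2.1 and D2A1 are mouse mammary tumor cell lines that were both derived from D2 hyperplastic alveolar nodules of BALB/c mice, and the question addressed here was which of their differences in RNA level are a property of the lines in the dish and which depend on growth as a tumor. Of the 24 RNA-seq libraries of the study, 16 bear on it: 3 libraries of each line in culture, and 5 mammary fat pad tumors of each line grown in SCID-beige mice. The 2 expression tables were joined by Ensembl gene identifier, which left 34519 genes, and 15077 of these had enough reads to be tested. For each gene the D2.1-to-D2A1 difference in tumors was compared with that in culture, and the gene was called kept, lost, gained or reversed by the rules given below. The remaining 8 libraries, tumors of the same lines in BALB/c mice (4 per line), were not used by the rules and served as a separate measurement.

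Both lines were unmodified. Cultured cells were grown in low-glucose DMEM with serum. For tumors, 1000000 cells were implanted orthotopically into young adult female mice, and individual tumors were collected at a volume of about 500 mm3. SCID-beige mice carry the Prkdc scid and Lyst bg mutations on a C.B background and lack T and B cells, with defective NK cells, but they keep macrophages, granulocytes, fibroblasts and vessels. BALB/c mice are immunocompetent. Nothing in the labels says that the 3 cultures of a line were grown separately, so the p-values measure the spread between these libraries, which for the cultures may be technical.

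D2A1 grows quickly after implantation, whereas D2.1 persists for a long time before it grows out and is used as a model of tumor dormancy. A line cultured on plastic is a nearly pure population, whereas a tumor adds host cells, vessels, matrix, hypoxia and nutrient limits, and each of these changes which genes are transcribed. Among the programs that respond to such cues are the keratins and cadherins of epithelial cells, the collagens and laminins of the matrix with their integrin receptors, Notch signaling between neighboring cells, and the sterol pathway, which is switched on when cells run short of cholesterol.

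The 16 libraries held 13566949 to 24818234 counts, so that 3 counts, taken as the floor of detection, corresponded to 0.141 to 0.203 counts per 1000000 of the scaled library size (CPM). Culture and tumor libraries came in separate tables whose gene models may differ: the gene length implied by the deposited values differed by more than 1.5-fold for 64.24% of 11061 genes. The median log2 ratio of tumor to culture length was -0.783. Whether the counted gene models or only the scaling of the deposited FPKM values differed cannot be told apart here. Each line difference was measured within 1 table, but the interaction compares differences measured in both. It was called in 17.6% of 1754 tested genes whose lengths lay within 10% and in 13.9% of 7106 that differed by more than 1.5-fold, and the part of the gene models was not tested further. A change of level from culture to tumor cannot be told apart from the change of table, and such shifts are given below only to compare the lines with each other. One library, D2.1 tumor 4, stood apart from the other 4 D2.1 tumors in several epithelial genes. It held 924 CPM of Krt8 against 266 to 447 CPM, 167 CPM of Krt18 against 12.4 to 49.5 CPM and 207 CPM of Myc against 71.0 to 127 CPM. It and D2.1 tumor 5 held most skeletal muscle RNA, with 357 and 280 CPM summed over 11 muscle genes against 2.96 to 26.8 CPM in the other 3. The third culture of each line also departed from the other 2 in a shared direction, with lower keratin levels and higher Fn1 and Thbs1 levels.

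In culture, 4244 of the 15077 genes (28.1%) differed between the lines (edgeR's quasi-likelihood test, called where the Benjamini-Hochberg value over all genes tested was under 0.05), with 2552 higher (16.9%) and 1692 lower (11.2%) in D2.1. In SCID-beige tumors, 5498 genes (36.5%) differed, with 2967 higher (19.7%) and 2531 lower (16.8%) in D2.1. With each setting fitted on its own, culture gave 5596 calls and tumors 4552, so which setting had more calls depended on the fit. Both settings called 2548 genes, which was 60.0% of the culture calls and 46.3% of the tumor calls, and 2324 of these (91.2%) had the same direction. The test of the interaction, (D2.1 tumor minus D2A1 tumor) minus (D2.1 culture minus D2A1 culture) on the log2 scale, called 1930 genes (12.8%). In 1234 of them (8.18% of genes tested) the tumor difference was more negative than that in culture, and in 696 (4.62%) it was more positive. Across the 15077 genes the culture and tumor differences correlated with a Pearson r of 0.532 and a Spearman rho of 0.473, a description over genes that are not independent replicates.

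A gene was called kept where the line difference passed the test in both settings with the same sign, reversed where it passed in both with opposite signs, lost where it passed in culture and not in tumors while the interaction also passed, and gained where it passed in tumors and not in culture while the interaction also passed. By these rules 2324 genes were kept (15.4% of genes tested), 706 were lost (4.68%), 465 were gained (3.08%) and 224 were reversed (1.49%). In culture 450 lost genes had been higher in D2.1 (2.98%) and 256 lower (1.70%), and 159 reversed genes had been higher (1.05%) and 65 lower (0.431%). The share that was higher in D2.1 was 63.7% of lost, 71.0% of reversed and 61.4% of kept genes, against 60.1% of all culture calls, from which these classes are drawn. The gained genes divided into 197 higher (1.31%) and 268 lower (1.78%) in D2.1 tumors. A further 3475 genes (23.0%) passed in 1 setting only with no interaction call, and these cannot be assigned, because a difference that misses the threshold in 1 setting is not shown to be absent there. In 40 genes (0.265%; 14 or 0.0929% higher and 26 or 0.172% lower) only the interaction passed, and 7843 genes (52.0%) passed no test. Of the 2324 kept genes, 1428 were higher in D2.1 (9.47%) and 896 lower (5.94%). The interaction was not called for 1829 of them (12.1% of genes tested). For 495 of the kept genes the interaction was called as well, and in 437 of those (88.3%; 2.90% of genes tested) the difference was smaller in tumors than in culture, and in 58 (0.385%) it was larger. As a measure of how common non-overlap is, the lines did not overlap in 49.7% of genes tested in culture, with 3 libraries a line, and in 23.1% in tumors. Without D2.1 tumor 4 the counts were 2422 kept, 755 lost, 559 gained and 271 reversed.

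**Figure D1:**
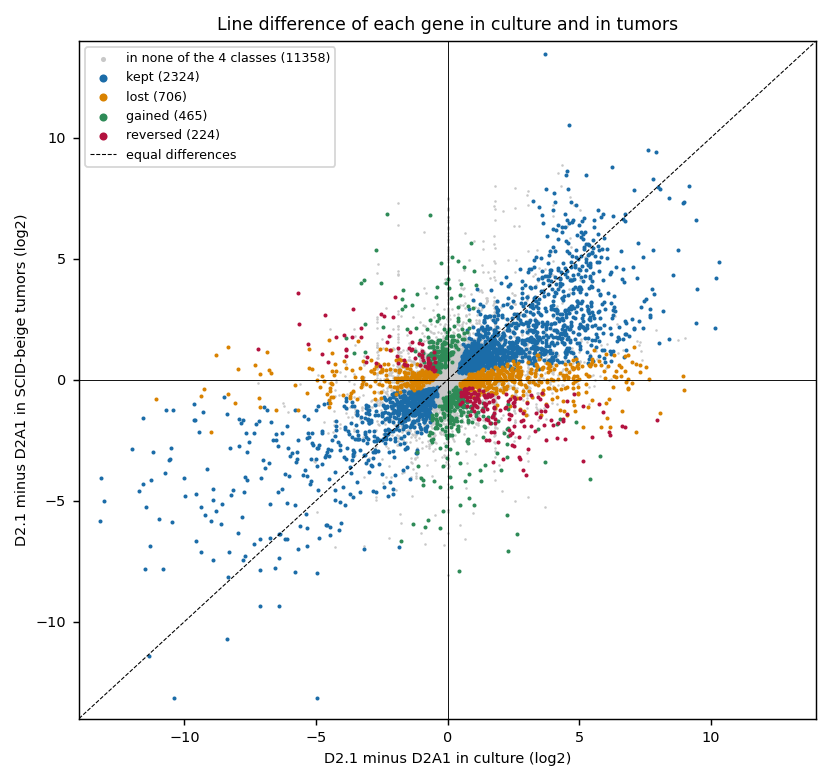
Each point is 1 of 15077 genes, with its D2.1-minus-D2A1 log2 difference in culture on the horizontal axis and in SCID-beige tumors on the vertical axis, colored by class; the dashed line marks equal differences. The 2324 kept genes lie in the lower left and upper right quadrants, mostly on the shallow side of the dashed line where the interaction was called, and the 224 reversed genes lie in the other 2 quadrants.

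The classes differed in which line accounted for the change between settings. Among the 450 genes lost from a higher level in D2.1, the median shift from culture to tumor was -0.04 in D2.1 and 1.90 in D2A1 on the log2 scale, and D2.1 was the line that moved more in 23.6% of them. Among the 256 genes lost from a lower level in D2.1 the median shifts were 1.25 in D2.1 and -0.49 in D2A1, and D2.1 moved more in 66.0%. Thus in either direction the line that was low in culture was the one with the larger median shift, upward. For reversed genes that were higher in D2.1 culture (159 genes) the medians were -0.50 in D2.1 and 2.18 in D2A1, and for those that were lower (65 genes) they were 2.23 in D2.1 and -0.16 in D2A1. Over all genes tested the medians were 0.10 and 0.15. These medians follow in part from how the classes were chosen and are given as a description.

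The BALB/c tumors, which the rules did not use, gave a measurement of their own. Of 14953 genes tested there, 4868 differed between the lines (32.6%), with 2510 higher (16.8%) and 2358 lower (15.8%) in D2.1. Among genes kept higher in D2.1, 1062 of the 1391 tested in BALB/c tumors (76.3%) were called higher there and 0 were called lower. Among those kept lower, 667 of 868 (76.8%) were called lower and 0 higher. The gained genes followed the SCID-beige direction in 128 of 194 cases for higher (66.0%) and 172 of 259 for lower (66.4%), with 0 in the opposite direction. Of the genes reversed from higher in culture, 84 of 158 (53.2%) were called lower in D2.1 in BALB/c tumors and 1 was called higher, and of those reversed from lower, 39 of 63 (61.9%) were called higher and 0 lower. Among lost genes, 547 of 682 (80.2%) were not called in BALB/c tumors, 85 were called higher and 50 lower in D2.1. Of all genes tested in both fits, 67.0% were not called. Lost genes were chosen as not called in SCID-beige tumors, whereas all genes were not, so these 2 shares cannot show that the loss recurs in BALB/c tumors.

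Genes whose difference was kept included those at the extremes. Bche, a serum cholinesterase, was at 1.79, 1.27 and 2.56 CPM in D2.1 cultures and at 0 in all 3 D2A1 cultures. In tumors Bche was at 32.9, 68.9, 187, 15.1 and 131 CPM in D2.1, and at 0 in 4 D2A1 tumors and 1.62 CPM in the fifth. The lines did not overlap in either setting, and the difference in tumors was 7.97 ± 0.98 (log2, SE, adjusted p = 1.4e-05, edgeR). The culture call of Bche ended when any 1 of 4 cultures was left out (adjusted p of 0.064 to 0.075, edgeR). Olfr1501, annotated as an olfactory receptor, was the mirror image: no D2.1 library held a count of it, and it was at 9.57, 7.79 and 12.6 CPM in D2A1 cultures. Its D2A1 tumors held 48.3, 50.5, 79.7, 88.8 and 67.2 CPM, which is at least 384-fold above a floor of 3 counts per D2.1 tumor. Dlx5, a homeobox transcription factor, was likewise at 0 in all D2.1 libraries, with 1.59 to 3.13 CPM in D2A1 cultures and 9.85 to 17.5 CPM in D2A1 tumors. Morc1, Lhfpl4 and Robo2, an axon guidance receptor, also ranked first by the size of the smaller difference, and Morc1 was at 0 in all 8 D2.1 libraries and between 15.9 and 26.2 CPM in all 8 D2A1 libraries.

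Genes of mammary progenitor cells mostly kept the D2.1-high difference. Among all genes tested, 16.9% were higher and 11.2% lower in D2.1 in culture, and 15.4% were kept. Of the 11 tested progenitor genes, 8 were higher and 1 was lower in D2.1 in culture, and the same 9 were kept in tumors. Their median difference was 3.71 in culture and 2.72 in tumors (log2), against 0.00 and 0.03 over all genes tested. The study had named several of these genes from these libraries, so the list is not independent evidence of its direction. Cd200, which encodes a membrane ligand of an inhibitory receptor on myeloid cells, was at 171, 165 and 116 CPM in D2.1 cultures against 2.64, 3.02 and 1.93 CPM in D2A1 cultures. In tumors it was at 140, 112, 144, 103 and 104 CPM in D2.1 against 7.14, 7.55, 9.13, 5.23 and 6.12 CPM in D2A1. All D2.1 libraries lay far above all D2A1 libraries, while the difference fell from 5.90 ± 0.28 to 4.10 ± 0.19 (log2 ± SE) and the interaction was called at -1.80 ± 0.30 (adjusted p = 0.00039, edgeR). Ptn, the heparin-binding growth factor pleiotrophin, behaved alike, with 49.5 to 72.6 CPM against 0 to 0.302 CPM in culture and 142 to 277 CPM against 3.31 to 7.78 CPM in tumors (interaction -3.40 ± 0.63, adjusted p = 0.001, edgeR).

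Sox9, a transcription factor of mammary progenitors, was at 105, 95.9 and 102 CPM in D2.1 cultures and 10.1, 7.73 and 12.2 CPM in D2A1 cultures. Its tumors held 145, 131, 160, 104 and 156 CPM in D2.1 and 28.4, 14.5, 19, 22.4 and 46.8 CPM in D2A1. The line difference was 3.34 ± 0.34 and 2.41 ± 0.25, and the interaction of -0.93 ± 0.39 did not pass (adjusted p = 0.14, edgeR). Dkk3, which encodes a secreted protein of the Dickkopf family, was at 3.23, 3.53 and 1.42 CPM in D2.1 cultures and had 0 counts in D2A1 cultures, at least 15.3-fold lower by the floor of 3 counts per library. In tumors Dkk3 was at 153, 207, 76.4, 57.5 and 237 CPM in D2.1 and 9.72, 3.81, 6.29, 11.2 and 5.28 CPM in D2A1, a difference of 4.33 ± 0.43 (adjusted p = 9.6e-07, edgeR). The lines stayed apart in both settings, and D2A1 tumors held Dkk3 reads that D2A1 cultures lacked. The study found Dkk3 RNA in several cell types of human breast tumors, and the part of host cells in the Dkk3 reads of these tumors was not tested. The Dkk3 interaction was -4.21 ± 2.14 and did not pass in edgeR (adjusted p = 0.24), whereas DESeq2 called it (-3.59, adjusted p = 0.047). Cd74, the invariant chain of MHC class II, is also on the list, but it rose from 2.54 to 4.78 CPM in D2.1 cultures to 655 to 1810 CPM in D2.1 tumors, and from at most 0.362 CPM to 109 to 176 CPM in D2A1; antigen-presenting host cells express it, and their part in its difference was not tested.

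Myc, the proliferation-driving transcription factor, was kept in the other direction. Its levels were 106, 96.6 and 99.7 CPM in D2.1 cultures and 272, 275 and 362 CPM in D2A1 cultures. In tumors they were 71.0, 84.7, 127, 207 and 90.0 CPM in D2.1 and 247, 283, 254, 238 and 488 CPM in D2A1. The groups did not overlap, the differences were -1.59 ± 0.34 and -1.38 ± 0.26, and the interaction was 0.21 ± 0.42 (adjusted p = 0.83, edgeR). Mki67, a marker of cycling cells, and Cdkn1b, which encodes the cell cycle inhibitor p27, passed in neither setting: the Mki67 difference was 0.21 ± 0.24 in culture and 0.39 ± 0.18 in tumors, and that of Cdkn1b was -0.23 ± 0.22 and 0.29 ± 0.17. In BALB/c tumors Cdkn1b was called higher in D2.1 (0.54, adjusted p = 0.028, edgeR) and Mki67 was not called (0.19, adjusted p = 0.66). The Mki67 difference in SCID-beige tumors passed without D2.1 tumor 2 (0.50, adjusted p = 0.042) or D2A1 tumor 5 (0.50, adjusted p = 0.047, edgeR).

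Of 13 tested genes of antigen presentation by MHC class I, 6 were kept and 4 could not be assigned. In all, 6 were higher in D2.1 in culture and 10 in tumors, 0 were lower in either, and 0 had an interaction called by edgeR (3 at an unadjusted p under 0.05, 0 by DESeq2). For this list and the Hox list below, the shares of all genes tested were 16.9% higher and 11.2% lower in culture and 19.7% and 16.8% in tumors. A further comparison is 15.4% kept and 12.8% with the interaction called. With so few genes, 0 interaction calls does not show that no difference changed. The 6 kept genes were H2-K1, H2-D1, Tap1, Tapbp, Psmb8 and Psmb9. Tap1, a subunit of the peptide transporter, was at 25.3, 25.5 and 19.3 CPM in D2.1 cultures against 10.7, 11.8 and 9.06 CPM, and at 96.4, 159, 65.5, 184 and 109 CPM in D2.1 tumors against 43.2, 56.7, 39.2, 46.8 and 40.6 CPM. In each setting the D2.1 libraries all lay above the D2A1 libraries, by 1.15 ± 0.29 in culture and 1.44 ± 0.22 in tumors (adjusted p = 0.0057 and 6.3e-05, edgeR). Without the third D2A1 culture, 3 genes of the list were kept, and H2-K1, H2-D1 and Psmb8 no longer passed in culture. Summed markers of dendritic, B, T and NK cells, which carry much class I, were higher in D2.1 tumors too, by 1.22, 2.08, 1.67 and 1.76 on the log2 scale. SCID-beige mice lack T and B cells, so these sums are RNA levels and do not show that such cells were present. Their part in the tumor differences was not tested. The class I heavy chain genes are close copies of one another, so their own counts are uncertain. Hox genes, which record positional identity, gave 8 higher calls and 0 lower in culture among 24 tested and 10 higher and 2 lower in tumors, with medians of 1.15 and 0.23. All 8 of the culture calls were kept: Hoxa4, Hoxa9, Hoxa10, Hoxb5, Hoxb6, Hoxc4, Hoxc5 and Hoxc6. Hoxa9 was at 39.7 to 45.5 CPM against 1.64 to 2.39 CPM in culture and at 20.5 to 40.1 CPM against 1.25 to 3.37 CPM in tumors, differences of 4.33 ± 0.33 and 3.97 ± 0.26. The culture calls of the Hox list numbered 5 without the third D2A1 culture and 6 without the third D2.1 culture, and Hoxa10, Hoxc4 and Hoxc5 were no longer kept when any 1 of 8, 6 and 3 libraries was left out. H2-K1, Tap1, Hoxa9 and other list members that the naming rule did not choose were singled out after their values were seen.

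Several collagens kept a difference that became smaller. Among 36 tested collagen genes, 14 were higher and 5 lower in D2.1 in culture, 14 were higher and 9 lower in tumors, and the interaction was called in 16, with 11 of them toward a lower D2.1 level. The shares over all genes tested were 16.9% and 11.2% in culture, 19.7% and 16.8% in tumors, and 12.8% for the interaction. The 3 main chains of type VI collagen moved as a set. Col6a1 was at 1250, 1250 and 1440 CPM in D2.1 cultures and only 10.5, 9.42 and 9.06 CPM in D2A1 cultures. Tumor levels were 3220, 4090, 2760, 2570 and 3630 CPM in D2.1 and 820, 739, 738, 798 and 755 CPM in D2A1. The lines never overlapped, but the difference fell from 7.09 ± 0.23 to 2.08 ± 0.14 (interaction -5.01 ± 0.24, adjusted p = 3.6e-10, edgeR). Col6a2 fell from 7.69 to 2.59, and Col6a3 from 6.19 to 1.90.

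The basement membrane chains Col4a1 and Col4a2, which are transcribed from a shared promoter region and pair in one protein, ran the other way. Col4a1 was at 0.115, 0.376 and 0.228 CPM in D2.1 cultures and 523, 509 and 759 CPM in D2A1 cultures. In tumors it was at 125, 57.2, 136, 80.0 and 91.4 CPM in D2.1 and 671, 478, 954, 956 and 878 CPM in D2A1. D2.1 thus stayed below D2A1 in every tumor, with a difference of -11.19 ± 0.51 in culture and -3.01 ± 0.25 in tumors (interaction 8.19 ± 0.53, adjusted p = 1.3e-08, edgeR). Lama4, a laminin chain of vessels and mesenchyme, had 0 counts in D2A1 cultures and 45.0 to 65.5 CPM in D2A1 tumors, against 4.84 to 10.1 CPM and 189 to 303 CPM in D2.1. Col2a1, the cartilage collagen, was the list's exception: at 0.659 to 1.02 CPM in D2.1 cultures and 45.9 to 143 CPM in D2.1 tumors, it had 0 counts in all 5 D2A1 tumors, which is at least 430-fold lower by the floor of 3 counts per library. The Col2a1 interaction did not pass without the third D2A1 culture (8.92, adjusted p = 0.14, edgeR). Host fibroblasts and vessels express many collagens, and their markers moved between the lines in tumors (below), and their part in these smaller differences was not tested. In bulk tumor RNA, fewer cells of a type and less RNA per cell cannot be told apart.

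Cdh15, Dysf and Spp1 ranked first among genes with at least 5 CPM in each cultured line that were lost from a higher level in D2.1. Cdh15, the cadherin of muscle precursors, was at 209, 243 and 285 CPM in D2.1 cultures and 10.5, 9.96 and 6.91 CPM in D2A1 cultures. The tumors had 58.7, 56.6, 79.8, 93.8 and 90.5 CPM in D2.1 and 83.1, 102, 89.5, 71.2 and 74.8 CPM in D2A1. The wide gap in culture became an overlap in tumors, where the difference was -0.15 ± 0.17 (interaction -4.90 ± 0.30, adjusted p = 7.2e-09, edgeR). In BALB/c tumors Cdh15 was called higher in D2.1, by 1.1 (adjusted p = 0.0035, edgeR). Dysf, which encodes the membrane repair protein dysferlin, did the same, with 127 to 185 CPM against 4.59 to 6.56 CPM in culture and 30.8 to 51.8 CPM against 38.1 to 52.1 CPM in tumors (interaction -4.86 ± 0.30). Summed skeletal muscle markers were at 7.63 to 11.5 CPM in D2.1 cultures and 1.76 to 3.74 CPM in D2A1 cultures. Spp1, the secreted phosphoprotein osteopontin, was at 4390 to 8640 CPM in D2.1 cultures against a median of 576 CPM, and at 1530 to 4580 CPM in D2.1 tumors against 3330 to 4590 CPM in D2A1 tumors (interaction -4.22 ± 0.43), and in BALB/c tumors it was called lower in D2.1 (-1.60). Without D2.1 tumor 3 Spp1 was reversed (-0.92 in tumors, adjusted p = 0.002, edgeR).

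Epithelial and mesenchymal regulators were split between classes. Cdh1, the adhesion protein E-cadherin, was at 35.1, 37.8 and 26.1 CPM in D2.1 cultures and 2.02, 1.39 and 1.02 CPM in D2A1 cultures. It was at 5.39, 11.6, 5.55, 21.1 and 11.6 CPM in D2.1 tumors, as against 10.7, 10.2, 6.09, 8.18 and 5.10 CPM in D2A1 tumors. The tumor groups overlapped, and the difference went from 4.48 ± 0.50 to 0.45 ± 0.33 (interaction -4.03 ± 0.58, adjusted p = 0.0001, edgeR). In BALB/c tumors the Cdh1 difference was called again, at 1.75 (adjusted p = 0.0004, edgeR). Snai1, a repressor of epithelial genes, was lost as well, from 64.8 to 95.6 CPM against 8.10 to 14.7 CPM in culture to 76.0 to 149 CPM against 71.0 to 138 CPM in tumors. Fn1, which encodes fibronectin, and Itga5, a chain of its receptor, were lost with interactions of -2.0 ± 0.52 and -1.42 ± 0.19. The Fn1 interaction missed the threshold without the third D2.1 culture (-1.61, adjusted p = 0.056) or without the first (-1.86, 0.053) or second (-1.85, 0.053) D2A1 culture. Snai1 and Itga5 were called higher in D2.1 in BALB/c tumors (0.52 and 0.51, adjusted p = 0.018 and 0.0068, edgeR) and Fn1 was not (0.54, adjusted p = 0.14). In contrast Snai2 and Krt14, a basal keratin, were kept, and Krt14 was at 61.2 to 323 CPM in D2.1 tumors against 0.609 to 3.41 CPM in D2A1 tumors. Of 27 genes taken from the study's text, 19 were kept, 4 were lost, 2 were reversed, 0 were gained and 2 were in no class. All genes tested gave 15.4%, 4.68%, 1.49% and 3.08% for these 4 classes. The 27 genes had a median of 3.17 in culture and 1.51 in tumors. The study chose most of them on these libraries, though not Mki67, so they are not independent evidence of a direction, and its T cell genes were not put on the list. Without D2.1 tumor 4 there were 18 kept and 5 lost, and without the third D2A1 culture 1 was reversed and 1 gained.

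Losses in the other direction were fewer. Rab11fip5, an adaptor of endosomal recycling, was at 5.65, 8.19 and 4.61 CPM in D2.1 cultures and 59.5, 54.3 and 65.6 CPM in D2A1 cultures. In tumors it was at 177, 160, 124, 86.1 and 116 CPM in D2.1 and 180, 165, 154, 155 and 160 CPM in D2A1, so that the groups overlapped (interaction 2.98 ± 0.30, adjusted p = 2.3e-06, edgeR). Deptor, an inhibitor of the mTOR kinase, was at 8.82 to 13.6 CPM against 57.1 to 60.1 CPM in culture and 14.9 to 38.3 CPM against 9.65 to 32.6 CPM in tumors (interaction 2.72 ± 0.44). Peg3, a paternally expressed imprinted gene, had 0 counts in D2.1 cultures and 10.5 to 24.2 CPM in D2A1 cultures, at least 97.4-fold lower by the floor. In tumors Peg3 was at 0.389 to 4.31 CPM in D2.1 and 0.722 to 5.53 CPM in D2A1, and the lines overlapped. Several lost genes were close to the floor in one cultured line and are expressed by host cells, among them the chemokine Ccl7, which went from 0.512 to 1.27 CPM in D2.1 cultures and 0 in D2A1 cultures to 12.5 to 36.8 CPM in all 10 tumors.

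Cholesterol synthesis genes were nearly all higher in D2.1 in culture, and fewer of them passed the test in tumors. Of 19 tested members, 18 were higher and 0 lower in D2.1 culture, whereas 6 were higher and 2 lower in tumors, and the interaction was called in 8, all toward a lower D2.1 level in tumors. Among all genes tested, 16.9% were higher and 11.2% lower in culture, 19.7% and 16.8% in tumors, and 12.8% had the interaction called. The list median was 1.64 in culture and 0.20 in tumors. Members fell into 6 kept, 6 lost and 2 reversed genes, 4 that could not be assigned and Sqle, which passed in neither setting. Of all genes tested, 15.4% were kept, 4.68% lost and 1.49% reversed. Hmgcs1, which makes the precursor of mevalonate, was at 453, 485 and 353 CPM in D2.1 cultures and 76.8, 70.2 and 93.2 CPM in D2A1 cultures. Grown as tumors, the lines had 42.3, 37.1, 80.4, 70.4 and 61.0 CPM in D2.1 and 29.5, 37.1, 46.3, 39.9 and 56.4 CPM in D2A1. The wide gap in culture became an overlap, and the difference went from 2.43 ± 0.28 to 0.48 ± 0.21 (interaction -1.95 ± 0.34, adjusted p = 0.00066, edgeR). When any 1 of 3 tumors was left out, the Hmgcs1 difference in tumors passed (0.57 to 0.61, adjusted p of 0.027 to 0.047), and the gene was kept with a smaller difference.

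Cyp51, the lanosterol demethylase, and Sc5d, a late desaturase of the same pathway, were reversed. Cyp51 was at 444, 535 and 297 CPM in D2.1 cultures and 159, 158 and 162 CPM in D2A1 cultures, and at 58.8, 31.6, 106, 76.8 and 50.9 CPM in D2.1 tumors, as against 112, 121, 117, 69.7 and 108 CPM in D2A1 tumors. The tumor groups overlapped in part, and the difference was 1.41 ± 0.32 in culture and -0.70 ± 0.25 in tumors (adjusted p = 0.0027 and 0.034, edgeR). The tumor call ended when any 1 of 6 tumors was left out for Cyp51 (adjusted p of 0.061 to 0.082) and when any 1 of 10 libraries was left out for Sc5d (0.054 to 0.1, edgeR), and the genes were then lost. In BALB/c tumors the differences were called at -1.51 for Cyp51 (adjusted p = 0.00014) and -1.37 for Sc5d (adjusted p = 0.00024, edgeR). Mvd, the mevalonate decarboxylase, stood apart from the rest of the list: it was at 335 to 497 CPM against 37.4 to 52.6 CPM in culture and still at no less than 226 CPM against 15.8 to 30.6 CPM in tumors, a difference of 3.18 ± 0.29 and 3.80 ± 0.23.

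As 8 of the 19 tested members had an interaction call in one direction, promoters are shown for a lost gene and the 2 reversed genes among them, from RefSeq sequence of build GRCm38.p6, as 250 bases before to 50 bases after the gene start, 5′ to 3′ on the strand of the gene. Capitals mark CCAAT boxes, the binding letters of the factor NF-Y, on either strand (CCAAT or ATTGG), and 1 match to the sterol regulatory element TCACNCCAC in Hmgcs1. The windows are chr13:119690101-119690400 (+) for Hmgcs1, chr5:4104648-4104947 (-) for Cyp51 and chr9:42264251-42264550 (-) for Sc5d.
Hmgcs1: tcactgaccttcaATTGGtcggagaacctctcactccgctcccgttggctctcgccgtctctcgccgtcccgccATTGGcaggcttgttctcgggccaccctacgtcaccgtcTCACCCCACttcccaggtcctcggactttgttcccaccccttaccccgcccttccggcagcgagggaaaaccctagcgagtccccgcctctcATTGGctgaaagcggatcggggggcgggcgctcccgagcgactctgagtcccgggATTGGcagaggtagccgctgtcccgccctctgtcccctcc
Cyp51: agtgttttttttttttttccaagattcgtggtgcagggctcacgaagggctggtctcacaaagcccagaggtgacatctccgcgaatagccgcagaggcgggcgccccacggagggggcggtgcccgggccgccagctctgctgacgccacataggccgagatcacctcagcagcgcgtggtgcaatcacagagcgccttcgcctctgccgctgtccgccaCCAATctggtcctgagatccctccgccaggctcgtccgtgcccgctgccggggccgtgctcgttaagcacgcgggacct
Sc5d: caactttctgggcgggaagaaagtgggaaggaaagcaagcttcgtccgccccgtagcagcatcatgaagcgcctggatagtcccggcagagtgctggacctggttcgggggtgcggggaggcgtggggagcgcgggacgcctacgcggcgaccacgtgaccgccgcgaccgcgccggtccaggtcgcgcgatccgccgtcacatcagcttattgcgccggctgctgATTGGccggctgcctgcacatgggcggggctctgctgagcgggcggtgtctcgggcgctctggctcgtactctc
Both strands were searched, and the marked matches of the 2 motifs do not overlap. A promoter was given for 12 of the 19 tested members, and a CCAAT box was found in 12 of those 12 genes, against 41.1% of the 27025 genes with a promoter; the sterol element was found in 1 of 12, against 1.44%. These matches are letters in a window and not bound sites.

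Gained differences passed the test in tumors and not in culture. Tspan15, a tetraspanin that partners the protease ADAM10, was at 8.54, 7.53 and 3.98 CPM in D2.1 cultures and 8.34, 10.6 and 8.04 CPM in D2A1 cultures. In tumors it was at 102, 84.2, 57.7, 30.9 and 51.6 CPM in D2.1 and 9.25, 9.12, 4.4, 4.81 and 3.36 CPM in D2A1. The lines overlapped in culture and were fully apart in tumors, by 3.40 ± 0.35 (interaction 3.83 ± 0.55, adjusted p = 9.9e-05, edgeR). Btc, the EGF receptor ligand betacellulin, was at 9.73 to 10.2 CPM against 6.46 to 14.7 CPM in culture and 9.57 to 79.1 CPM against 2.1 to 3.24 CPM in tumors (interaction 3.72 ± 0.67). Thsd4, a protein of microfibrils, had 7.97 to 17.4 CPM against 7.31 to 16.1 CPM in culture and 55.2 to 160 CPM in D2.1 tumors against 9.74 to 14.3 CPM in D2A1 tumors (interaction 3.23 ± 0.46).

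Genes gained toward a lower level in D2.1 included matricellular proteins that respond to cell tension and TGF-beta. Thbs1, thrombospondin 1, was at 1420, 1290 and 2700 CPM in D2.1 cultures and 1500, 1430 and 2190 CPM in D2A1 cultures. Among tumors the levels were 46.2, 51.4, 26.3, 43.4 and 104 CPM in D2.1 and 574, 453, 858, 1020 and 1490 CPM in D2A1. The cultures overlapped and the tumors did not, and the tumor difference was -4.02 ± 0.39 (interaction -4.10 ± 0.59, adjusted p = 9.9e-05, edgeR). Of 24 tested matricellular and fiber proteins, 5 were gained, Thbs1, Ccn1, Ccn2, Fbn1 and Lox, and all 5 toward a lower level in D2.1 tumors; the call of Lox, which was at most 0.8 CPM in culture, was lost when any 1 of 8 libraries was left out (adjusted p of 0.054 to 0.15). Ccn1 was at 730 to 1310 CPM against 595 to 1010 CPM in culture and 64.5 to 117 CPM against no less than 315 CPM in tumors (interaction -2.51 ± 0.35). In this list the interaction was called in 15 of 24 genes, 13 of them negative, and the median difference was 1.46 in culture and -0.63 in tumors. Among all genes tested, 12.8% had the interaction called (8.18% negative) and 3.08% were gained (1.78% lower in D2.1). Itga3, an integrin chain that binds laminin, was gained as well, at 41.5 to 92.7 CPM in D2.1 tumors against 299 to 385 CPM in D2A1 tumors, from a culture difference of -0.62 ± 0.23 that did not pass, although it did when any 1 of 3 D2.1 tumors was left out.

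Other gained genes with large interactions were near the floor in culture, and their culture differences are poorly measured. Stra6, the receptor for retinol-binding protein, had 0.115 to 0.683 CPM in D2.1 cultures and 0 counts in D2A1 cultures, and in tumors it was at 5.39, 8.09, 1.72, 31.5 and 7.84 CPM in D2.1 and 210, 227, 174, 171 and 164 CPM in D2A1. The Stra6 interaction of -9.52 ± 2.45 (adjusted p = 0.016, edgeR) did not pass with the replicate block (-10.1, adjusted p = 0.067) or without the third D2.1 culture (-8.33, adjusted p = 0.16). Nos2, the inducible nitric oxide synthase, was at 0 to 2.44 CPM in D2.1 tumors against 5.61 to 13.6 CPM in D2A1 tumors, from 0 to 0.865 CPM and 0 in culture, and its interaction did not pass without the first D2.1 culture (-7.79, adjusted p = 0.059). Msln, the surface protein mesothelin, was not near the floor: it was at 69.7 to 153 CPM against 10.3 to 34.0 CPM in culture (adjusted p = 0.08), and in tumors at 7.05 to 19.1 CPM in 4 D2.1 tumors, with D2.1 tumor 4 at 140 CPM, against 184 to 311 CPM in D2A1 tumors. Its interaction was -4.91 ± 1.18 (adjusted p = 0.0099, edgeR). Without D2.1 tumor 4 Msln was reversed, with 2.25 in culture (adjusted p = 0.00079) and -4.45 in tumors. Among higher genes, Fam19a5, Erich2 and Sept3 had at most 0.302 CPM in any culture, and they were at 5.20 to 15.4, 3.02 to 6.62 and 3.44 to 11 CPM in D2.1 tumors against at most 0.720, 0.135 and 1.19 CPM in D2A1 tumors. The Sept3 interaction (7.30, adjusted p = 0.04, edgeR) missed the threshold when any 1 of 8 libraries was left out, at 0.24 without the first D2A1 culture, and that of Erich2 did so without the same culture (4.29, adjusted p = 0.99).

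**Figure D2:**
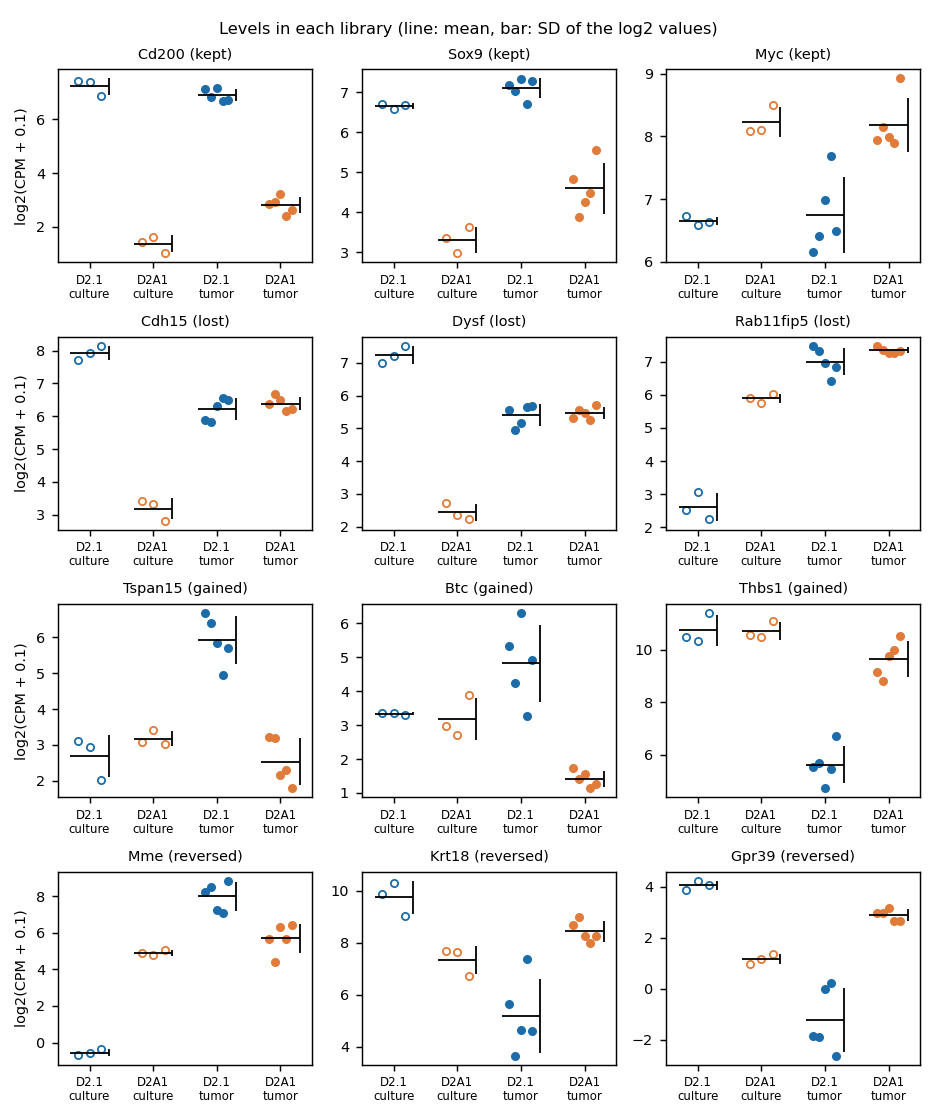
Levels of 12 genes, 3 from each class, as log2(CPM + 0.1) on the vertical axis, with 1 point per library; open points are cultures (3 per line), filled points SCID-beige tumors (5 per line), and lines and bars give the mean and SD. Kept genes separate the lines in both settings, lost genes only in culture and gained genes only in tumors, while Mme, Krt18 and Gpr39 change which line is higher.

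Reversed genes changed which line was higher. Mme, the membrane protease neprilysin, was at 0.519, 0.565 and 0.683 CPM in D2.1 cultures and 29.2, 27.0 and 33.6 CPM in D2A1 cultures. In tumors it was at 297, 361, 151, 136 and 460 CPM in D2.1 and 50.5, 20.9, 77.8, 51.1 and 85.0 CPM in D2A1. The lines were apart in both settings with opposite order, by -5.65 ± 0.59 and 2.30 ± 0.35 (interaction 7.95 ± 0.69, adjusted p = 3.2e-07, edgeR), and the BALB/c difference was 3.97. Gpr39, a zinc-sensing receptor, ran the opposite way, with 14.4, 18.7 and 16.8 CPM against 1.84, 2.11 and 2.44 CPM in culture and 0.0607 to 1.05 CPM against 6.13 to 8.93 CPM in tumors (interaction -6.91 ± 0.72). Hist1h1c, which encodes a linker histone, gave 70.6 to 85.4 CPM against 21.2 to 23.8 CPM in culture and 22.3 to 39.1 CPM against 93.1 to 118 CPM in tumors. Its difference was 1.79 ± 0.19 and -1.79 ± 0.15, and in BALB/c tumors -1.65 (adjusted p = 0.0007, edgeR). Cldn1, a tight junction protein, was at 0.455 to 1.18 CPM against 3.07 to 3.79 CPM in culture and 5.15 to 13.7 CPM against 0.421 to 2.50 CPM in tumors.

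The keratin pair Krt8 and Krt18, whose proteins assemble into one filament, did not move together. Krt18 was at 945, 1280 and 530 CPM in D2.1 cultures and 203, 202 and 106 CPM in D2A1 cultures. It was at 49.5, 12.4, 25, 167 and 24.1 CPM in D2.1 tumors, as against 416, 512, 309, 256 and 304 CPM in D2A1 tumors. All 5 D2.1 tumors lay below all 5 D2A1 tumors, so the difference reversed from 2.43 ± 0.68 to -2.69 ± 0.53 (interaction -5.12 ± 0.87, adjusted p = 0.00049, edgeR). The reversal rested on the third D2A1 culture: without it the culture difference of Krt18 was not called (2.18, adjusted p = 0.062) and the gene was gained. Krt18 was called lower in D2.1 in BALB/c tumors as well (-3.49). Krt8, in contrast, was kept at a higher level in D2.1, with 3040, 3620 and 1930 CPM against 155, 147 and 31.0 CPM in culture and 383, 447, 266, 924 and 346 CPM against 247, 305, 162, 164 and 195 CPM in tumors. The D2.1 and D2A1 tumors overlapped in part, and the Krt8 difference was 4.69 ± 0.56 in culture and 1.14 ± 0.38 in tumors (interaction -3.55 ± 0.63). Its tumor call ended without D2.1 tumor 4 (0.75, adjusted p = 0.095), and without D2A1 tumor 3 or 4 (1.06, adjusted p = 0.057, edgeR), and Krt8 was then lost. In BALB/c tumors it was called higher in D2.1 (0.90, adjusted p = 0.0049, edgeR). Epithelial genes as a list gave 7 higher and 1 lower call among 16 in culture and 4 higher and 1 lower in tumors, with 4 kept, or 3 without D2.1 tumor 4. Of all genes tested, 16.9% were higher and 11.2% lower in culture, 19.7% and 16.8% in tumors, and 15.4% were kept. The higher and kept counts of the list in tumors were thus not far above those shares.

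Integrins and Notch genes supplied further reversals. Of 24 tested integrin genes, 4 were kept, 3 lost, 2 gained and 3 reversed, the last being Itgb3, Itgb5 and Itga6. Over all genes tested, 15.4% were kept, 4.68% lost, 3.08% gained and 1.49% reversed. Itgb3, the shared chain of the vitronectin and platelet integrins, was at 46.3, 57.5 and 34.4 CPM against 3.92, 4.71 and 11.3 CPM in culture and 7.81, 10.6, 15.3, 23.6 and 15.5 CPM against 45.8, 39.8, 44.8, 58.6 and 52.0 CPM in tumors. The lines were fully apart in both settings, with D2.1 above in culture and below in tumors (interaction -4.52 ± 0.50, adjusted p = 5.5e-06, edgeR). Itga6 went the other way, from -1.49 ± 0.42 to 1.30 ± 0.32 (gained without the first D2.1 culture, where the culture adjusted p was 0.051), while its partner chain Itgb4 was kept at 2.93 ± 0.28 in culture and 0.99 ± 0.19 in tumors. In the Notch list, 10 of 15 genes were higher and 2 lower in D2.1 culture, 4 were higher and 3 lower in tumors, and the median fell from 2.82 to 0.07. Of all genes tested, 16.9% were higher and 11.2% lower in culture, and 19.7% and 16.8% in tumors, so the Notch counts in tumors lay near those shares. The receptor Notch4 was kept with hardly a change, at 473 to 574 CPM against 12.2 to 25.6 CPM in culture and 491 to 744 CPM against 26.6 to 50.6 CPM in tumors (interaction -0.59 ± 0.34, adjusted p = 0.3, edgeR). Notch1 was kept with a smaller difference (5.14 ± 0.49 and 2.41 ± 0.33), and its implied length differed between the tables by -2.64 on the log2 scale. The receptor Notch3, the ligand Jag1 and the targets Hes1 and Heyl were lost, and the ligand Dll4 and the feedback inhibitor Nrarp were reversed. Dll4, which is also made by vessel cells, was at 4.09 to 5.08 CPM against 0.113 to 0.664 CPM in culture and 1.94 to 7.66 CPM against 18.4 to 23.5 CPM in tumors, and endothelial markers were higher in D2A1 tumors too (below).

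The Nrf2 list and the glycolysis and hypoxia list each had a single reversed gene, 1 of 16 and 1 of 25 tested, against 1.49% of all genes tested. Without D2.1 tumor 4 each of these lists had 2, and without the third D2A1 culture the Nrf2 list had 0. Nqo1, a quinone reductase and target of the oxidative stress factor Nrf2, was at 120, 115 and 108 CPM against 63.3, 67.4 and 42.6 CPM in culture and 8.76, 13.5, 18.6, 25.1 and 8.08 CPM against 35.0, 44.4, 36.7, 29.2 and 37.6 CPM in tumors. The order of the lines was reversed without overlap in either setting (interaction -2.29 ± 0.41, adjusted p = 0.00079, edgeR). The culture call of Nqo1 ended when any 1 of 4 cultures was left out, the third D2A1 culture among them (adjusted p of 0.058 to 0.11), and the gene was then gained. Nqo1 was called lower in D2.1 in BALB/c tumors (-1.97, adjusted p = 3.9e-05, edgeR). Hmox1, a heme-degrading enzyme and another Nrf2 target, was gained at a lower level in D2.1 tumors (-1.33 ± 0.25), as were G6pdx and Me1, the last of which changed class when any 1 of 5 libraries was left out. Of the 16 tested Nrf2 targets, 5 were higher and 1 lower in D2.1 culture, and 2 were higher and 6 lower in tumors. The shares over all genes tested were 16.9% and 11.2% in culture and 19.7% and 16.8% in tumors. Pfkfb3, a regulator of glycolysis, was reversed from -3.06 ± 0.37 to 0.95 ± 0.26, with 2.59 to 3.87 CPM against 21.9 to 28.0 CPM in culture and 32.1 to 58.2 CPM against 12.2 to 37.3 CPM in tumors.

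Lists of growth genes had few interaction calls. For comparison, over all genes tested 16.9% were higher and 11.2% lower in D2.1 in culture, 19.7% and 16.8% in tumors, and 12.8% had the interaction called. Ribosome biogenesis genes were lower in D2.1 in 12 of 30 cases in culture and 17 of 30 in tumors, with 0 higher in either, medians of -0.55 and -0.50, and 10 kept genes; without the third D2.1 culture 6 were lower in culture and 5 were kept. Of 40 DNA replication genes, 10 were lower and 0 higher in culture and 11 lower and 2 higher in tumors, and without the third D2.1 culture 3 were lower in culture. Mitosis genes gave 0 higher and 1 lower call among 25 in culture and 1 higher and 3 lower in tumors, and 0 interaction calls by edgeR (2 at an unadjusted p under 0.05, 0 by DESeq2). Oxidative phosphorylation genes had 0 interaction calls among 77 by edgeR (8 at an unadjusted p under 0.05, 2 by DESeq2), with 3 higher and 4 lower in culture and 1 higher and 17 lower in tumors. In BALB/c tumors, 23 of 30 ribosome biogenesis, 19 of 40 DNA replication and 11 of 25 mitosis genes were lower in D2.1. There 0, 1 and 0 were higher, the medians were -0.89, -0.61 and -0.56, and 15.8% of all genes tested were lower. Of 77 oxidative phosphorylation genes, 9 were lower and 1 higher in BALB/c tumors. Wnt ligands, receptors and antagonists kept their difference in 11 of 37 cases, against 15.4% of all genes tested, with medians of 0.65 and 0.58. Of 23 matrix proteases and inhibitors, 14 were higher and 3 lower in D2.1 culture and 7 were higher and 6 lower in tumors. Of 15 laminins and basement membrane genes, 5 were higher and 2 lower in culture and 1 was higher and 6 lower in tumors.

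**Figure D3:**
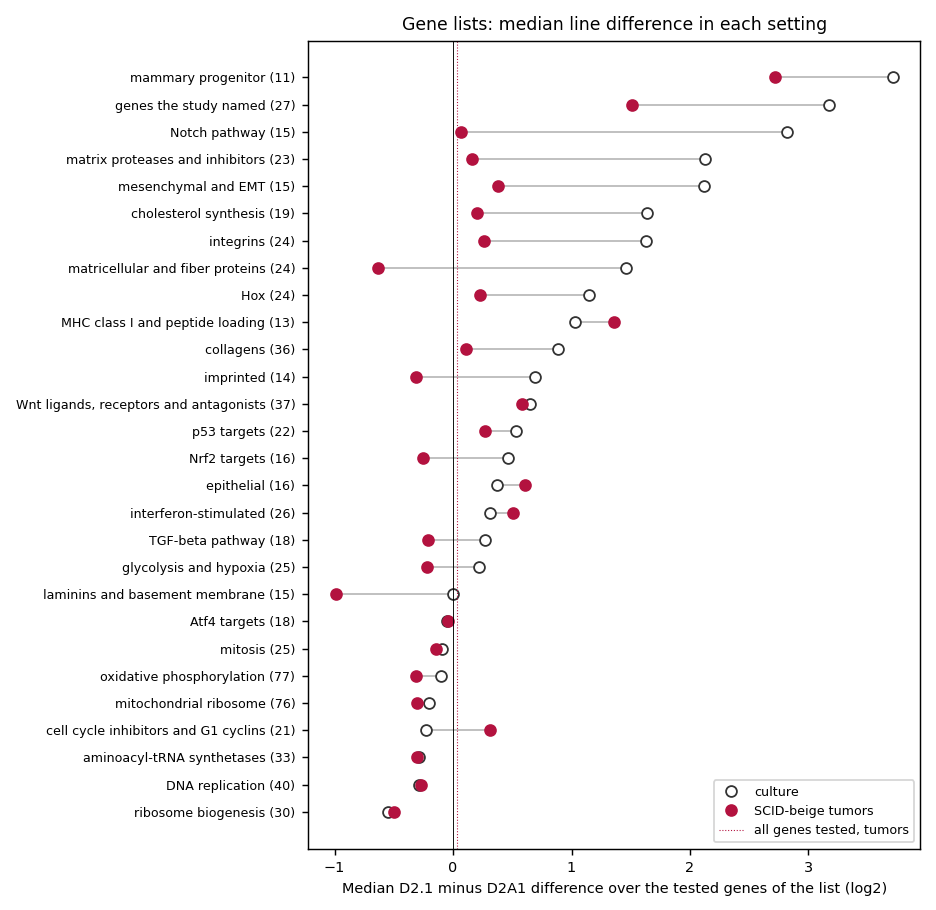
Median D2.1-minus-D2A1 log2 difference over the tested genes of each of 28 lists (number of genes in parentheses), in culture (open) and in SCID-beige tumors (filled); the dotted line is the median of all genes tested in tumors. Mammary progenitor and MHC class I lists stay to the right in both settings, growth lists stay slightly to the left, and Notch, cholesterol and matricellular lists move left in tumors.

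Markers of host cell types were found in the tumors, and some of their sums differed between the lines. Summed over 14 macrophage markers, tumors held 2090 to 4270 CPM in D2.1 and 2030 to 3100 CPM in D2A1, against 8.69 to 18.6 CPM in cultures, and the lines overlapped (0.24 on the log2 scale, exact 2-sided permutation test, p = 0.31, adjusted p = 0.433 over 14 lists). Endothelial markers, 11 in all, summed to 101 to 151 CPM in D2.1 tumors and 309 to 398 CPM in D2A1 tumors, a difference of -1.57 (exact permutation p = 0.00794, the smallest that 5 against 5 allow, adjusted p = 0.0139). Fibroblast markers summed to 1040 to 2140 CPM in D2.1 tumors against 604 to 964 CPM in D2A1 tumors (0.91, the same p), but also to 143 to 195 CPM against 42.3 to 75.8 CPM in cultures, so the cultured lines themselves express markers on this list. B cell, NK cell, T cell and dendritic cell markers were higher in D2.1 tumors by 2.08, 1.76, 1.67 and 1.22, with the same p, at sums of at most 67.6 CPM in any tumor. SCID-beige mice lack T and B cells, and whether these sums come from such cells was not tested. Only 2 of 6 B cell and 3 of 9 T cell markers had enough reads, and of those 3, 2 were higher and 1 lower. D2.1 cultures alone held 4.10 to 6.12 CPM of the T cell markers, against 5.40 to 8.53 CPM in D2A1 tumors. D2A1 cultures alone held 29.0 to 35.0 CPM of the NK cell markers, above the D2A1 tumors at 7.39 to 17.4 CPM, and 6.81 to 9.85 CPM of the dendritic cell markers. Skin markers were lower by 1.03 on this scale at no more than 4.76 CPM, and erythroid markers by 3.58, with 1600 CPM in D2A1 tumor 5 (2.71 lower without it). Pericyte, adipocyte, neutrophil, skeletal muscle and milk protein sums did not pass, at differences of 0.02, -0.47, 0.77, 1.32 and 0.29. Even so, 6 of 10 tested skeletal muscle genes were called higher and 0 lower in D2.1 tumors by edgeR, against 19.7% and 16.8% of all genes tested. The difference of that sum ranged from 0.48 to 2.11 with 1 library left out. Of the 93 host marker genes tested, Pecam1, Cdh5, Cspg4, Lck, Col14a1 and Mfap5 were called gained, Kdr, Robo4 and Col15a1 reversed, and Cd68, Acta2, Notch3 and Eomes lost. These are 6.45%, 3.23% and 4.3% of the markers, against 3.08%, 1.49% and 4.68% of all genes tested. The class of 5 of these 13 genes, Cdh5, Col14a1, Cspg4, Kdr and Mfap5, changed with some library left out, and that of Kdr did so for any 1 of 12. Pecam1, an adhesion protein of endothelium, was at most 0.235 CPM in any culture and at 24.1 to 32.4 CPM in D2.1 tumors against 66.8 to 91.8 CPM in D2A1 tumors. The part of host cells in the counts of lost, gained and reversed genes was not tested. Among genes with at least 5 CPM in both cultured lines, 9316 in all, 1285 were kept, 392 lost, 331 gained and 121 reversed.

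**Figure D4:**
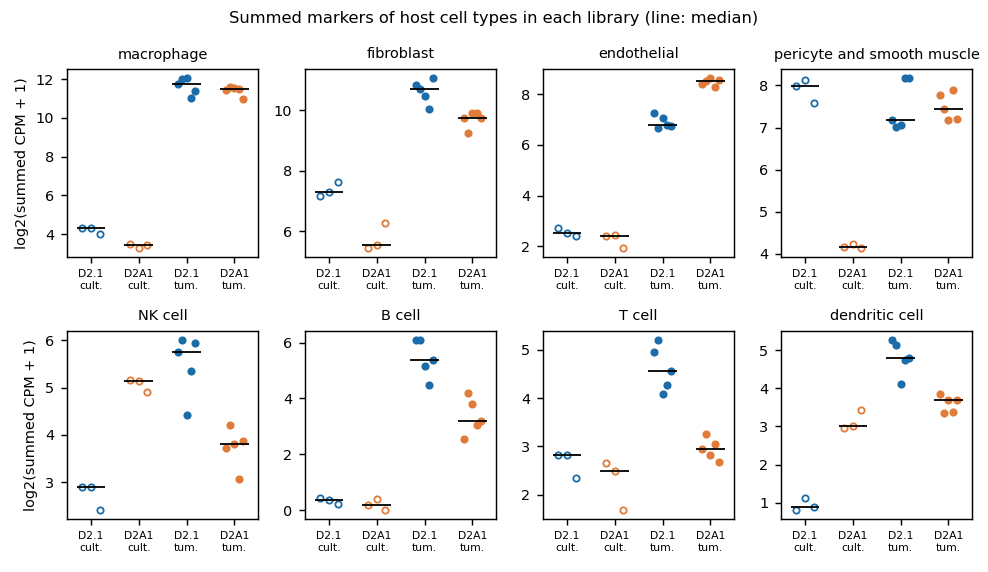
Summed CPM of the markers of 8 host cell types as log2(sum + 1), with 1 point per library (open: cultures; filled: SCID-beige tumors) and a line at each median. Endothelial sums are higher in all 5 D2A1 tumors, at 309 to 398 CPM, than in all 5 D2.1 tumors, while fibroblast, B, T, NK and dendritic cell sums are higher in D2.1 tumors and macrophage sums overlap.

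Kept and gained genes were unevenly placed in the genome, which the rules did not use. Genes kept higher in D2.1 numbered 165 on chromosome 10 and 141 on chromosome 15, which was 23.1% and 24.1% of the tested genes of those chromosomes, against 9.47% of all genes tested. Kept genes that were lower in D2.1 made up 14.3% of chromosome 12, 11% of chromosome 1 and 11.1% of chromosome X, against 5.94% overall. The pattern was not limited to called genes. Among 453 genes of chromosome 10 with at least 5 CPM in both cultured lines, 86.5% had a difference above 0 in culture, 85.2% in SCID-beige tumors and 75.7% in BALB/c tumors, against 48.5%, 49.6% and 43.2% on all chromosomes, with medians of 0.48, 0.47 and 0.35. For 369 such genes on chromosome 15 the medians were 0.58, 0.38 and 0.32. Chromosome 12 (322 genes) had medians of -0.52, -0.26 and -0.43, with 16.5% above 0 in culture. Gained genes were most frequent on chromosome 8, with 35 higher (4.31% of its tested genes) and 39 lower (4.80%) in D2.1 tumors, against 1.31% and 1.78% overall.

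Neighboring kept genes of one direction formed 13 runs of 4 or 5 tested genes, of which 3 were on chromosome 10, 5 on chromosome 15, 2 on chromosome X, 2 on chromosome 9 and 1 on chromosome 11. Ddit3, Mars, Arhgap9, Gli1 and R3hdm2 on chromosome 10 were 5 tested genes in a row that were kept higher in D2.1, and Bhlhb9, Arxes2, Tceal8, Tceal9 and Bex3 on chromosome X were 5 in a row kept lower. Mars was no longer kept when any 1 of 5 cultures was left out. On chromosome 15, which held 141 genes kept higher and 27 kept lower in D2.1, a run of 4 was lower: Fam84b, 9930014A18Rik, Myc and the noncoding gene Pvt1.

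**Figure D5:**
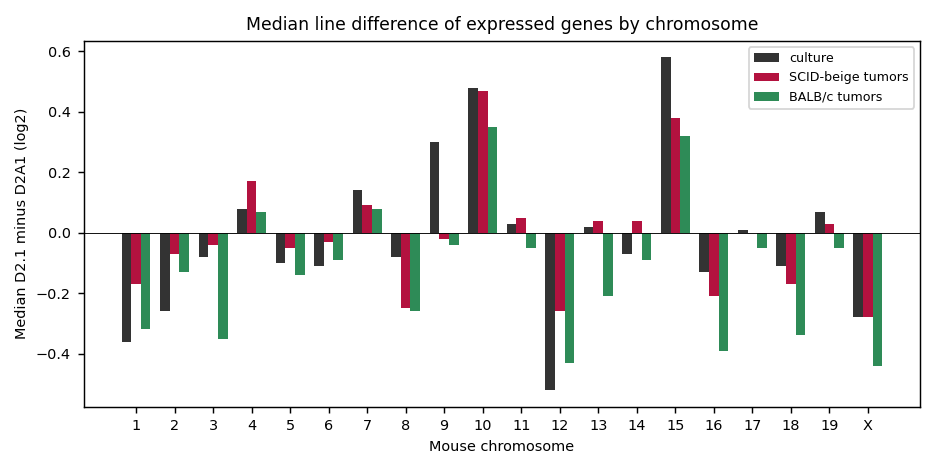
Median D2.1-minus-D2A1 log2 difference by chromosome over 9316 genes with at least 5 CPM in both cultured lines, as bars for culture, SCID-beige tumors and BALB/c tumors. Chromosomes 10 and 15 stand above 0 and chromosomes 1, 12 and X below 0 in all 3 settings.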

How the data were processed

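RNA-seq was measured in 24 libraries, per the labels from reads aligned by the authors with STAR to mm10; the counting tool, its strand setting and the annotation are not given in the sources used here. The deposited tables, 1 for cultures and 1 for tumors, hold raw read counts per gene, with no normalization. The authors also deposited FPKM values, which were used only to compare the gene lengths implied by both tables. All comparison groups came from the labels.

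Counts were joined by gene identifier (34519 of 35275 genes in the culture table and of 54532 in the tumor table; 99.16% or more of each library's counts) and fitted in R 4.3.3 with edgeR 4.0.16 (TMM normalization, filterByExpr, robust quasi-likelihood test) as 4 group means with contrasts for each setting and their interaction; p-values were adjusted by Benjamini-Hochberg over the 15077 genes tested at a threshold of 0.05. The BALB/c tumors had a fit of their own. Summed host markers, in CPM with 1 added before log2, were compared by exact 2-sided permutation tests. Levels are CPM over the TMM-scaled library size, and floors (3 counts per library) cover counting error only. On simulated counts for the interaction (14630 genes, 200 changed by 2 on the log2 scale), 73% of the changed genes were recovered and 4.58% of calls were false. In that simulation all 4 groups had the same mean and spread for each gene before the change, and only genes above 1 CPM were changed. These rates therefore do not cover genes near the floor or groups of unequal spread. No 2 replicates were a library deposited again, since 26 pairs differed with a chi-square over its degrees of freedom of 5.21 to 133.

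Genes were named by a rule: protein-coding, at least 5 CPM in the highest group, no overlap of the lines where called, and the 3 first-ranked per class and direction by effect size, again among genes with at least 5 CPM in each cultured line, with 27 genes from the study's text and the 2 largest called interactions of each list. The genes, lists and rules were chosen with earlier results of these data known. Alternatives were DESeq2 1.42.0, other scaling, filters, thinning, the replicate number as a block and leaving out each library; list counts without 3 libraries and shares by gene length were added after the data were seen. Same-numbered cultures deviated together (correlations of 0.237, 0.13 and 0.396), a pairing that comes from the data, whereas same-numbered tumors did not in every case (-0.122 to 0.276). Promoters were RefSeq GRCm38.p6; chromosome 18 was not used.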

Additional observations from a re-analysis of the deposited data

Results flagged for a closer look

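The interaction was itself the test of whether the line difference changed with the growth setting, and it called 696 genes toward a higher and 1234 toward a lower D2.1 level in tumors. Among the genes named by their rank in a class or taken from the study's text, the interaction on the log2 scale was positive and called in Peg3 (10.24), Tril (8.85), Chn2 (8.70), Rab11fip5 (2.98), Deptor (2.72), Epb41l1 (2.72), Fam19a5 (8.08), Erich2 (7.48), Sept3 (7.30), Tspan15 (3.83), Btc (3.72), Thsd4 (3.23), Smad9 (6.52), Mme (7.95), Cldn1 (4.66), Camkk1 (3.42), Txndc16 (2.62) and Gpr155 (2.59). It was called and below -6 in Pi15 (-8.78), Plin4 (-7.24), Ccl7 (-7.14), Stra6 (-9.52), Nos2 (-8.94), Cdh11 (-6.60), Clca2 (-8.48), Gpr39 (-6.91) and Esr1 (-6.53). It lay between -6 and -4 in Cdh15 (-4.90), Dysf (-4.86), Spp1 (-4.22), Msln (-4.91), Thbs1 (-4.10), Aldh1l1 (-5.90), Krt18 (-5.12), AU018091 (-5.40), Cdh1 (-4.03) and Twist2 (-5.09). Smaller negative interactions were called in Klhdc8a (-3.64), Hist1h1c (-3.58), Krt8 (-3.55), Itgb4 (-1.93), Ptn (-3.40), Cd200 (-1.80), Itga5 (-1.42), Sparc (-1.01), Fn1 (-2.0), Snai1 (-2.43) and Notch1 (-2.73). The Cdh11 and Sparc calls each ended when any 1 of 5 cultures was left out (adjusted p of 0.056 to 0.19 for Cdh11 and 0.057 to 0.079 for Sparc, edgeR). Several of these genes had 0 or few counts in a cultured line, so the size of their interaction depends on the fit.

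Of 164 groups of values tested for a library apart from the rest of its group, 23 had one. Chance gives about 1 in 20 for independent groups, but these groups share libraries, so that rate is no measure of an excess here. In D2.1 tumors the values apart were 924 CPM of Krt8, 167 CPM of Krt18, 140 CPM of Msln, 31.5 CPM of Stra6, 11 CPM of Epcam, 98.5 CPM of Nrg1 and 5.84 CPM summed over milk protein markers, all in the fourth tumor. Other D2.1 tumors held 4.31 CPM of Peg3, 323 CPM of Krt14, 36.6 CPM of Id4 and 0.972 CPM of Smad9, each apart from the other 4. In D2A1 tumors single libraries stood apart with 488 CPM of Myc, 143 CPM of Mmp9, 19.3 CPM of Plin4, 1.62 CPM of Bche, 1.19 CPM of Sept3, 0.720 CPM of Fam19a5, 0.601 CPM of Greb1, 0.541 CPM of Robo2 and 0.0601 CPM of Lhfpl4. Summed host markers stood apart in single D2A1 tumors for neutrophils (156 CPM), adipocytes (306 CPM) and erythroid cells (1600 CPM).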

How the results depend on the processing

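With an added limit of an absolute log2 difference above 1, the tumor calls numbered 2904, the kept genes 1305, the gained genes 290, the reversed genes 107 and the BALB/c calls 2939. Every other alternative kept the 8 main counts within 1.5 times. With each setting fitted on its own, however, culture gave 5596 calls (53.9% higher in D2.1) and tumors 4552 (50.3% higher). The order of the settings was then opposite to that of the main fit, and the excess of higher calls was smaller. With the replicate block the counts were 2599 for the interaction, 5215 for culture, 6370 for tumors, 2902 kept, 915 lost, 657 gained, 306 reversed and 7116 in BALB/c tumors; of 105 named genes the block ended the interaction call of 3, Stra6, Fbln1 and Wnt7a. Leaving out 1 library gave 1418 (without the first D2A1 culture) to 2164 (without D2.1 tumor 4) interaction calls, 3306 to 4488 culture calls, 4832 to 5677 tumor calls, 1883 to 2422 kept, 502 to 779 lost, 343 to 559 gained, 156 to 271 reversed and 4074 to 5046 BALB/c calls. Without the first D2A1 culture 13 named genes lost their interaction call.

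Signs changed only where no difference was called. The Bche interaction was 0.68 by DESeq2, 0.04 with DESeq2 size factors, 0.25 with the replicate block, 0.00 with all 24 libraries, 5.70 with replicates 1 to 3 and 0.52 after thinning, and ranged from -0.50 to 5.54 with 1 library left out. Thinning gave 0.06 for Robo2, whose range was -2.05 to 0.86. Morc1 was 0.10 by DESeq2 and 0.02 with replicates 1 to 3, and ranged from -0.12 to 0.06. Ranges that crossed 0 were also found for Epcam (-0.73 to 0.16), Greb1 (-0.25 to 1.55), Myc (-0.11 to 0.45) and Mki67 (-0.01 to 0.40). Of the host sums, pericyte markers gave -0.05 with library totals and ranged from -0.15 to 0.14, adipocyte from -0.82 to 0.09, milk protein from -0.16 to 0.49 and neutrophil from 0.59 to 1.17, the last passing without D2A1 tumor 4 (adjusted p = 0.0494). The cause of these changes was not tested. With some library left out, 28 of the 105 named genes changed class. Depth limits genes near 0.141 to 0.203 CPM, which 3 counts make.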
